A study of Homo sapiens with 15 samples.

Results

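Human cells with an induced intracellular domain of NOTCH4 (NICD4) were compared directly with cells carrying the induced intracellular domain of NOTCH2 (NICD2). The empty vector libraries (EV) give a reference level, and all 15 libraries of the series entered the fit, where they share 1 estimate of the spread. The comparison is between the 3 NICD4 and the 3 NICD2 libraries, 6 of the 15 libraries of a polyA RNA-seq series whose other groups carry the empty vector, NICD1 or NICD3. Each intracellular domain was switched on with doxycycline, an antibiotic used to induce engineered genes. Its dose and duration, its use in EV cells and the source of the replicates (separate cultures or not) are not in the labels. The p-values therefore measure the spread between these libraries, which may be technical. The cell line is labelled HCT116, a colorectal carcinoma line, in the sample characteristics and U373, a glioma line, in the sample descriptions. For NICD4 replicate 1, the title and description say NICD4 whereas the source and genotype fields say NICD3, and it was kept in NICD4.

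NOTCH receptors are cut after binding a ligand on a neighbouring cell, and the released intracellular domain enters the nucleus. There it joins the DNA-binding protein RBPJ and a Mastermind coactivator and switches on genes such as the HES and HEY transcriptional repressors and the feedback inhibitor NRARP. The intracellular domains share the ankyrin repeats that contact RBPJ and Mastermind and differ most in their C-terminal parts. An expressed intracellular domain bypasses ligand binding and cleavage, so the comparison asks how the RNA of cells differs when one or the other receptor's domain is present.

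RBPJ binds DNA at sites built on the letters TGGGAA. The 250 bases upstream of the RefSeq start sites of HES1, HES4, HEYL and NRARP (GRCh38.p14) are shown because these NOTCH target genes differed in opposite directions between the groups in the values as scaled. That split did not hold once the trend on GC content, described below, was removed. HES4 then had the other sign, and HEYL was not called. Each sequence runs 5′ to 3′ on the gene's own strand, and capitals mark each match to TGGGAA or, on the other strand, TTCCCA.
HES1, plus strand, chr3:194135898-194136147: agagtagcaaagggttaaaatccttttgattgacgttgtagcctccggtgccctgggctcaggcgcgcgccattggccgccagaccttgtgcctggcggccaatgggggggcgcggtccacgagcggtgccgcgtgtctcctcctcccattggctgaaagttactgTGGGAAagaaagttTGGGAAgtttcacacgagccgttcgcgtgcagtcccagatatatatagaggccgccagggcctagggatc
HES4, minus strand, chr1:1000098-1000347: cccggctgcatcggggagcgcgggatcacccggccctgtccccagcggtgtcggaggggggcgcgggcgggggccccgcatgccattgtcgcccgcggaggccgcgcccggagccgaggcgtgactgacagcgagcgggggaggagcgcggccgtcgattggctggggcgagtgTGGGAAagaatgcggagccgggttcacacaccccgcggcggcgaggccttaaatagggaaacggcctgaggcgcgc
HEYL, minus strand, chr1:39639644-39639893: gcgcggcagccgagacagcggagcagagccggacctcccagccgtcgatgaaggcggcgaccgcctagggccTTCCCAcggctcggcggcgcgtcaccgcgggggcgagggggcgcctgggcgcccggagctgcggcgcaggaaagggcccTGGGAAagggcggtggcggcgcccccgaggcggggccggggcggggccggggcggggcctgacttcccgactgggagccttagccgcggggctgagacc
NRARP, minus strand, chr9:137302272-137302521: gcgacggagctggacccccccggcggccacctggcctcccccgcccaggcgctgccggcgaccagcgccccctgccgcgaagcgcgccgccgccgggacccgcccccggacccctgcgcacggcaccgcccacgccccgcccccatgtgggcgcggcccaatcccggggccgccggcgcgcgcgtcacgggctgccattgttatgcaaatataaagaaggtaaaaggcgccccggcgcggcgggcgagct
HES1 held 2 matches, which begin 84 and 70 bases before the start site, HES4 held 1, which begins 76 bases before it, HEYL held 2, which begin 178 and 99 bases before it, and NRARP held none in this window. The same window was also searched for JAG1 and EFNB2, which likewise differed in opposite directions and are described below, and held no match in either. A match on either strand was present in 20.8% of the 35116 RefSeq upstream windows of this length, and 2 or more matches in 2.9%. A match is a description of the letters, not a binding site.

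Levels are given in CPM, the usual read count relative to library size, after scaling of the library totals by TMM (trimmed mean of M values) factors, in the order of replicates 1, 2 and 3. Differences are log2 differences, NICD4 minus NICD2, ± SE from limma, and a gene was called when its adjusted p was under 0.05. A positive difference means higher in NICD4. These 6 libraries held from 11630195 to 22785395 counted reads, and 15122 genes passed the filter on low counts. In bulk RNA, a change in every cell and a change in the share of cells cannot be told apart.

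The 2 groups differed widely. Of the 15122 genes tested, 4541 (30%) were called higher in NICD4 and 5059 (33.5%) higher in NICD2, so 63.5% were called. Differences of at least 2-fold were called for 1509 genes (9.98%) higher in NICD4 and for 1274 (8.42%) higher in NICD2. All 3 NICD4 libraries lay above all 3 NICD2 libraries for 4836 genes (32%), and the reverse held for 5316 (35.2%). The median log2 difference over all tested genes was -0.04. Without the TMM factors, scaling by total reads moved that median to -0.29 and gave 3155 genes higher in NICD4 and 6760 higher in NICD2, 31.8% of calls higher in NICD4 in place of 47.3%.

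The differences also followed the base composition of the transcripts. With the genes split into 5 equal groups by GC content, the median log2 difference was -0.50 in the group of lowest GC content and -0.33, -0.08, 0.26 and 0.63 in the next groups up to the highest. Because of this, the differences below are given as scaled and, second, after the trend on GC content was removed library by library, called the GC-adjusted value. With the trend removed, 3821 genes (25.9%) were called higher in NICD4 and 4143 (28.1%) higher in NICD2, and 2821 (19.1%) and 3194 (21.7%) were called in the same direction in both fits. Another 232 genes were called in opposite directions in the 2 fits. The trend also differed in size among libraries of a group. It was measured as the median log2 deviation of genes from their mean over all 15 libraries. From the lowest to the highest GC group, this ran from -0.570 to 0.666 in NICD4 replicate 1. In NICD4 replicates 2 and 3 it ran from -0.208 to 0.290 and from -0.330 to 0.440. In NICD2 replicates 1, 2 and 3 it ran from 0.112 to -0.094, 0.239 to -0.274 and 0.082 to -0.086. The part of library composition in any single difference was not tested.

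**Figure D1:**
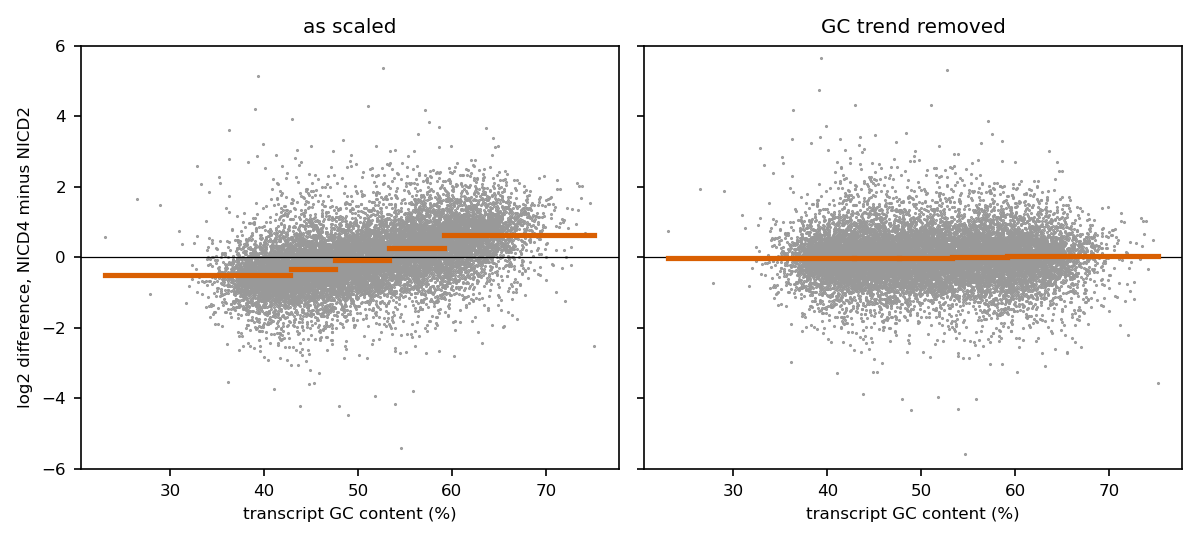
Log2 difference (NICD4 minus NICD2, y axis) of each tested gene with a known transcript GC content (x axis, percent), as scaled (left) and with the GC trend removed (right). Orange lines are medians of 5 equal groups of genes by GC content, which climb from -0.50 to 0.63 on the left and lie near 0 on the right.

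The libraries of a group were not equally alike. NICD2 replicates 1 and 3 differed by little more than counting noise, with a mean chi-square per gene of 1.35 where counting noise alone gives about 1, against 19.9 and 24.8 for the pairs with replicate 2. Among the NICD4 pairs this value ran from 9.17 to 50.8, the highest between replicates 1 and 2. Counting NICD2 replicates 1 and 3 as 1 library, an alternative chosen after the data were seen, left 4266 genes higher in NICD4 and 4797 higher in NICD2. Without NICD4 replicate 1, the library with conflicting labels, 3965 and 4382 genes were called.

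The markers of the labelled tissues were checked first. Epithelial genes were abundant in both groups: the keratin KRT8 stood at 6142 ± 697 CPM in NICD2 and 7898 ± 1698 CPM in NICD4 (mean ± SD, n = 3), and the intestinal transcription factor CDX2 at 37.7 ± 4.09 CPM in NICD2 and 60.8 ± 7.5 CPM in NICD4. The epithelial adhesion gene EPCAM was measured at 275, 309 and 258 CPM in NICD2 and 122, 176 and 155 CPM in NICD4, a log2 difference of -0.90 ± 0.12 (adjusted p = 5.4e-05) and GC-adjusted -0.58. The EPCAM values of the groups did not overlap. The astrocyte filament gene GFAP was low, at 1.07, 0.888 and 0.987 CPM in NICD2 and 6.87, 2.87 and 3.41 CPM in NICD4, and the filament gene VIM, abundant in glioma lines, stood at 1.85 ± 0.238 CPM in NICD2 and 1.06 ± 0.614 CPM in NICD4. Of the 16 astrocyte and glioma markers listed, 5 passed the filter, of which 4 were called higher in NICD4 and 1 higher in NICD2 (3 and 1 GC-adjusted), and AQP4, OLIG2, SOX2 and FABP7 had no read in either group. Their summed level overlapped between the groups, at 76.89, 81.73 and 77.84 CPM in NICD2 and 87.54, 64.14 and 66.94 CPM in NICD4. Of 24 colorectal epithelial markers 18 were tested, of which 6 were called higher in NICD4 and 7 higher in NICD2 (4 and 7 GC-adjusted), and CEACAM5, CDH17 and TFF3 had no read in either group. The line is left as labelled.

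The receptor genes themselves were measured next, since the labels name them. NOTCH2 stood at 42.4, 40.2 and 42.8 CPM in NICD2 and 39.8, 40.2 and 40.6 CPM in NICD4, against 31.3 ± 1.45 CPM in EV. Its difference of -0.06 ± 0.07 (adjusted p = 0.48, GC-adjusted 0.05) between the groups did not pass the test. NOTCH4 stood at 1.2, 0.646 and 0.79 CPM in NICD2 and 1.81, 2.22 and 1.95 CPM in NICD4, from 18, 16 and 16 reads in NICD2 and 20, 34 and 20 reads in NICD4. All 3 NICD4 libraries were above the NICD2 libraries (log2 difference 1.17 ± 0.25 (adjusted p = 0.00098), GC-adjusted 0.78), but NOTCH4 in NICD4 was near its EV level of 1.66 ± 0.434 CPM. How the submitters' counting treated reads from the vectors is not given in the sources used here, so these counts do not check the labels. NOTCH1 (27.7 ± 2.66 CPM in NICD2 and 31.2 ± 0.581 CPM in NICD4, difference 0.18 ± 0.08 (adjusted p = 0.072)) and NOTCH3 (12 ± 1.76 CPM in NICD2 and 14.1 ± 1.19 CPM in NICD4, difference 0.24 ± 0.11 (adjusted p = 0.071, GC-adjusted -0.22)) did not pass the test, although NOTCH1 was called lower in NICD4 after GC adjustment (-0.49 ± 0.09 (adjusted p = 0.00043)).

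Direct NOTCH target genes did not move together. HES1, a repressor of differentiation genes (GRCh37 chr3:193853934-193856521), stood at 107, 101 and 107 CPM in NICD2 and 51.5, 61.5 and 58.3 CPM in NICD4, and NRARP, which promotes loss of the NICD complex (GRCh37 chr9:140194083-140196703), at 103, 99.5 and 102 CPM in NICD2 and 59.2, 59.7 and 57.9 CPM in NICD4. For both genes every NICD2 library lay above every NICD4 library, and every NICD4 library lay above the EV means of 19.4 CPM for HES1 and 26.5 CPM for NRARP. The log2 difference was -0.88 ± 0.08 (adjusted p = 2.1e-06) for HES1 and -0.79 ± 0.07 (adjusted p = 9.2e-07) for NRARP, and GC-adjusted it was -0.84 and -1.58.

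HES4, a HES repressor whose upstream sequence is shown above, had the opposite order at 188, 135 and 177 CPM in NICD2 and 301, 224 and 279.6 CPM in NICD4. The NICD4 libraries were above the NICD2 libraries, with a log2 difference of 0.69 ± 0.17 (adjusted p = 0.0025), yet the GC-adjusted value had the other sign, -0.33 ± 0.07 (adjusted p = 0.0016). HES6, which encodes a HES protein that counteracts HES1, behaved likewise, at 0.40 as scaled and -0.50 GC-adjusted, both called. HES4 and HES6 transcripts have GC contents of 74.2% and 70.1%, in the group of highest GC content. HES2 (0.51 and 0.13 as scaled and GC-adjusted) and HEYL (0.35 and -0.07) were called higher in NICD4 in the fit as scaled and not GC-adjusted, and HEY1 was not called at 0.498 ± 0.0395 CPM in NICD2 and 0.903 ± 0.194 CPM in NICD4 (0.77 and 0.94). The fit of the 6 libraries alone called HEY1 (0.76, adjusted p = 0.047) and not HEYL (0.34, adjusted p = 0.052). Without NICD4 replicate 1 the HEYL difference was 0.22 and not called. In total, 7 of the 10 listed HES, HEY and NRARP genes were tested, with 4 called higher in NICD4 and 2 higher in NICD2 as scaled, against 0 and 4 GC-adjusted, and 1 and 2 with total-read scaling.

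**Figure D2:**
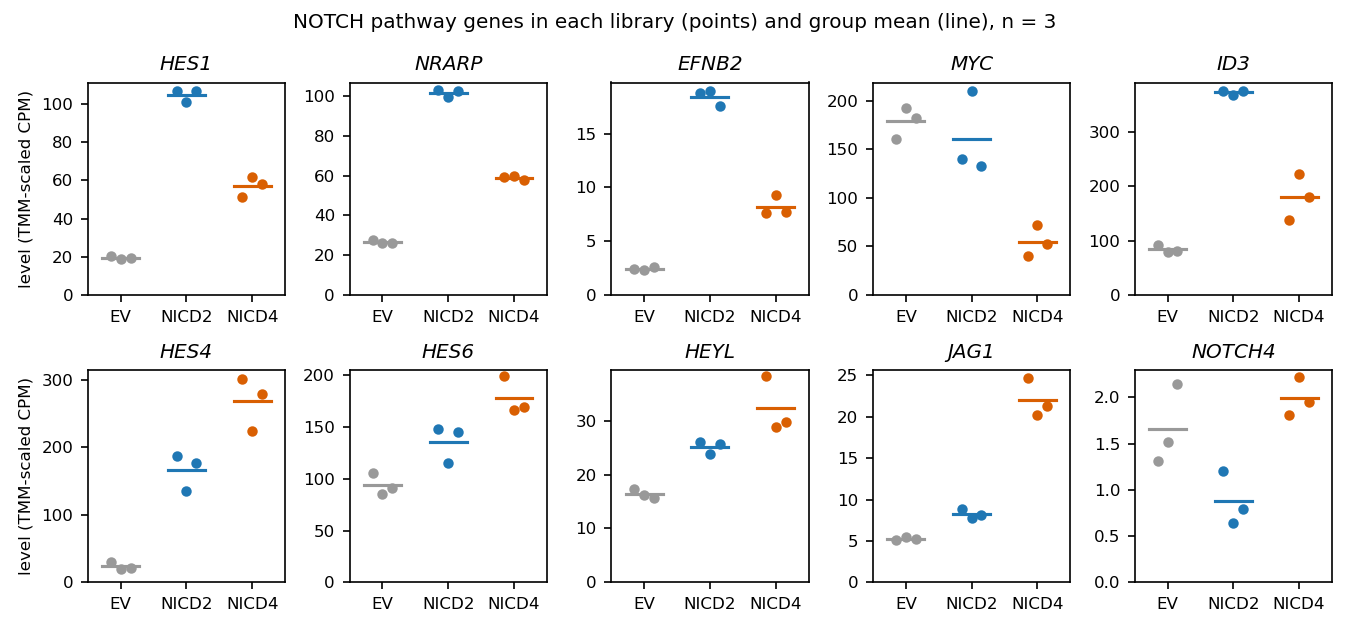
Level (y axis, TMM-scaled CPM) of 10 NOTCH pathway genes in each EV, NICD2 and NICD4 library (points) with the group mean (line), n = 3. HES1, NRARP, EFNB2 and ID3 lie highest in NICD2, whereas HES4, HES6, HEYL and JAG1 lie highest in NICD4. For HES4 and HES6 the GC-adjusted difference has the other sign, and for HEYL it lies near 0.

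Among the ligands, JAG1 and DLL1 differed in opposite directions. JAG1, which encodes a ligand that is also a NOTCH target in many cells, stood at 8.88, 7.79 and 8.1 CPM in NICD2 and 24.7, 20.2 and 21.3 CPM in NICD4, with no overlap between groups and a log2 difference of 1.41 ± 0.12 (adjusted p = 8.5e-07), GC-adjusted 1.45. DLL1, which encodes a Delta ligand, was low in both groups and lower in NICD4, at 1.14, 1.01 and 0.938 CPM in NICD2 and 0.814, 0.457 and 0.292 CPM in NICD4, with log2 differences of -1.01 and -1.62 as scaled and GC-adjusted. DLK2, a Delta-like noncanonical ligand, was also lower in NICD4 (-0.61 and -1.19). RFNG, a fringe enzyme that adds sugars to NOTCH, was higher in NICD4 (35.8 ± 5.92 CPM in NICD2 and 78.9 ± 18.7 CPM in NICD4, log2 differences 1.12 and 0.45). JAG2, encoding the other Jagged ligand, was called in opposite directions, at 0.38 as scaled and -0.28 GC-adjusted. Of 10 tested genes of 13 listed as ligands and fringe enzymes, 4 were called higher in NICD4 and 3 higher in NICD2, with a median of 0.10. GC-adjusted these counts were 2 and 4 with a median of -0.12, and with total-read scaling 2 and 5 with a median of -0.16.

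Several other genes reported as NOTCH targets were higher in NICD2. MYC, a growth-promoting transcription factor, stood at 140.0, 210.2 and 132 CPM in NICD2 and 39.8, 71.8 and 52.3 CPM in NICD4. NICD2 replicate 2 was the highest of these libraries, and the NICD2 mean was close to the EV mean of 179 CPM. The NICD4 libraries were all lower, with a log2 difference of -1.57 ± 0.23 (adjusted p = 9.2e-05) and -1.96 GC-adjusted. ID3, an inhibitor of helix-loop-helix factors, stood at 376, 369 and 377 CPM in NICD2 and 139, 222 and 180.3 CPM in NICD4, a log2 difference of -1.08 ± 0.14 (adjusted p = 3.4e-05, GC-adjusted -1.38). EFNB2, the ephrin-B2 ligand, was measured at 18.8, 18.9 and 17.6 CPM in NICD2 and 7.6, 9.33 and 7.69 CPM in NICD4, and its difference was -1.17 ± 0.12 (adjusted p = 5.7e-06, GC-adjusted -0.89). For both genes NICD2 and NICD4 libraries did not overlap, and their EV means were lower, at 84.5 and 2.44 CPM.

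IGF1R, the receptor of insulin-like growth factors, was lower in NICD4 (6.13 ± 0.376 CPM in NICD2 and 3.16 ± 0.497 CPM in NICD4, log2 differences -0.95 and -0.99), as were SNAI1, a repressor of E-cadherin (10.7 ± 0.625 CPM in NICD2 and 5.74 ± 1.41 CPM in NICD4, -0.92 and -1.29), and SOX9, a transcription factor of intestinal crypts (78.5 ± 0.68 CPM in NICD2 and 61.2 ± 4.32 CPM in NICD4, -0.36 and -0.33). Higher in NICD4 were CDKN1A, the CDK inhibitor p21 (159.8 ± 9.57 CPM in NICD2 and 300.4 ± 29.2 CPM in NICD4, 0.91 and 0.48), and the transcription factor GATA3 (0.951 ± 0.335 CPM in NICD2 and 4 ± 1.95 CPM in NICD4, 1.95 and 1.53). CCND1, cyclin D1, had values of opposite sign in the 2 fits (0.31 and -0.34). RUNX1 stood at 65.6 ± 3.34 CPM in NICD2 and 70.6 ± 14.1 CPM in NICD4 and was not called. Of 29 such genes 23 were tested, with 8 called higher in NICD4 and 8 higher in NICD2, and 5 and 10 GC-adjusted.

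Genes of the nuclear complex and of receptor processing were called in both directions. MAML1, a Mastermind coactivator, was lower in NICD4 at 28.6 ± 2.9 CPM in NICD2 and 16.4 ± 1.13 CPM in NICD4 (-0.80 and -1.01 as scaled and GC-adjusted), and so were SNW1, a cofactor at RBPJ (-0.96 and -0.66), KAT2B, a histone acetyltransferase (-1.13 and -0.79), and the corepressor gene CTBP2 (-0.77 and -1.06). RBPJ itself was not called as scaled (38.3 ± 1.69 CPM in NICD2 and 39.8 ± 2.62 CPM in NICD4, 0.05 ± 0.07 (adjusted p = 0.54)) and was called higher in NICD4 after GC adjustment (0.51). NCSTN, encoding nicastrin of the gamma-secretase that cuts NOTCH, was lower in NICD4 (-0.87 and -0.83), and PSENEN, another subunit of that enzyme, was higher (0.74 and 0.47). NEURL1B, a ubiquitin ligase for NOTCH ligands, was higher in NICD4 at 11.1 ± 1.58 CPM in NICD2 and 35.3 ± 2.31 CPM in NICD4 (1.67 and 0.77). ITCH, a ubiquitin ligase that acts on NOTCH, was lower (-0.79 and -0.36). Over the 18 tested genes of the nuclear complex, 4 were called higher in NICD4 and 9 higher in NICD2, and over the 20 of cleavage and turnover 5 and 9. GC-adjusted these counts were 4 and 7, and 3 and 7. Over all tested genes, 63.5% were called in either direction as scaled and 54% GC-adjusted, so calls in these lists are not particular to them.

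The largest differences lay outside the NOTCH pathway. Among genes called in both fits with no overlap between groups and a mean log2 CPM of at least 1, GLIS3-AS1 had the largest rise in NICD4. This antisense transcript (GRCh37 chr9:3898642-3901248) stood at 0.735, 0.485 and 0.543 CPM in NICD2 and 31.1, 23 and 25.1 CPM in NICD4, against 0.0128 CPM in EV, with a log2 difference of 5.37 ± 0.22 (adjusted p = 1.6e-09, GC-adjusted 5.32). It lies within GLIS3 (GRCh37 chr9:3824127-4348392), a zinc finger transcription factor gene that was itself higher in NICD4, at 2.14, 1.62 and 1.93 CPM in NICD2 and 12.8, 14.3 and 11.6 CPM in NICD4 and a log2 difference of 2.74 ± 0.19 (adjusted p = 1.3e-07, GC-adjusted 2.88). Without a stated strand setting, reads of an antisense gene and of the gene it overlaps cannot be told apart, and the same holds for TMEM132D-AS1, at 5.68, 4.16 and 5.43 CPM in NICD2 and 109, 91.5 and 97.9 CPM in NICD4 (log2 differences 4.28 and 4.31 as scaled and GC-adjusted). TMEM132D-AS1 was low in NICD2 and above its EV level of 72.2 CPM in NICD4. NICD3 is the group named in some label fields of NICD4 replicate 1. TMEM132D-AS1 stood at 9.61 ± 1.56 CPM in NICD3 and 109 CPM in that replicate, and NLRP4 at 26 ± 2.02 and 1.27 CPM. TNFSF4 was closer, at 11.2 ± 1.28 CPM in NICD3 and 13.8 CPM in that replicate. These genes were chosen with that replicate included, so their values do not check its label, which was not tested.

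The next protein-coding genes higher in NICD4 were PCBP3, encoding an RNA-binding protein of the poly(C) family (1.9 ± 0.337 CPM in NICD2 and 36.5 ± 14.8 CPM in NICD4, log2 differences 4.16 and 3.86 as scaled and GC-adjusted), and TRIM29, a TRIM family gene of stratified epithelia (0.577 ± 0.229 CPM in NICD2 and 7.92 ± 2.31 CPM in NICD4, 3.69 and 3.30). APOA1, the main protein of high-density lipoprotein, stood at 0.668, 0.485 and 0.888 CPM in NICD2 and 14.1, 5.74 and 9.15 CPM in NICD4, with log2 differences of 3.67 and 3.02. TNFSF4, which encodes the OX40 ligand, stood at 1.6, 1.41 and 1.68 CPM in NICD2 and 13.8, 16 and 14.9 CPM in NICD4. Its NICD4 libraries were well above the NICD2 libraries (log2 difference 3.21 ± 0.14 (adjusted p = 2.7e-09, GC-adjusted 3.72)), and both groups were below the EV mean of 39.3 CPM. QPRT, an enzyme of NAD synthesis, had the same order, with 0.744 ± 0.171 CPM in NICD2 and 6.82 ± 1.01 CPM in NICD4 and 18.9 CPM in EV (log2 differences 3.12 and 2.73).

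RGS9, a regulator of G protein signalling (2.15 ± 0.76 CPM in NICD2 and 19.1 ± 4.58 CPM in NICD4), S100A5, a calcium-binding protein gene (2.96 ± 0.9 CPM in NICD2 and 23.8 ± 4.52 CPM in NICD4), GPD1, glycerol-3-phosphate dehydrogenase (1.1 ± 0.32 CPM in NICD2 and 9.17 ± 2.67 CPM in NICD4), and KRT5, a basal keratin (0.914 ± 0.5 CPM in NICD2 and 6.52 ± 0.937 CPM in NICD4), completed the coding genes named by this rule. Their log2 differences were 3.16, 3.02, 3.00 and 2.87, and GC-adjusted 3.15, 2.92, 2.76 and 2.67. The pseudogene ATP5F1EP2 was also among them (3.27 ± 0.682 CPM in NICD2 and 50.9 ± 15.8 CPM in NICD4, 3.91 and 4.31), and its reads cannot be separated from those of near-identical copies. In several of these genes NICD4 replicate 1 was the highest library, for example PCBP3 at 52.9, 24.1 and 32.5 CPM and APOA1 at 14.1, 5.74 and 9.15 CPM.

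In the other direction, NLRP4, an NLR family gene expressed mainly in germ cells (GRCh37 chr19:56347944-56393218), stood at 29.5, 27.5 and 28.2 CPM in NICD2 and 1.27, 0.979 and 1.46 CPM in NICD4, against 10.1 CPM in EV. The NICD2 libraries were above EV and the NICD4 libraries below it, and the log2 difference was -4.48 ± 0.13 (adjusted p = 1.8e-11), GC-adjusted -4.33. RIMS2, a gene of synaptic vesicle release, stood at 9.09, 11.3 and 9.23 CPM in NICD2 and 0.452, 0.261 and 0.876 CPM in NICD4, with a difference of -4.22 ± 0.30 (adjusted p = 2.2e-07, GC-adjusted -3.86). RIMS2 in NICD4 was near its EV mean of 0.229 CPM.

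NR2F1, an orphan nuclear receptor gene (GRCh37 chr5:92919043-92930321), and NR2F1-AS1 (GRCh37 chr5:92746995-92921354), which overlaps it at its start, were both lower in NICD4. NR2F1 stood at 16.3, 21.6 and 15.8 CPM in NICD2 and 2.53, 2.35 and 2.72 CPM in NICD4, a log2 difference of -2.78 ± 0.20 (adjusted p = 1.8e-07, GC-adjusted -3.26), and NR2F1-AS1 at 7.19 ± 2.2 CPM in NICD2 and 0.715 ± 0.348 CPM in NICD4 (-3.29 and -2.99 as scaled and GC-adjusted). The libraries of the 2 groups were apart for both genes, and the EV means of 11.7 and 4.02 CPM lay between them. EMP1, an epithelial membrane protein gene (5.76 ± 1.93 CPM in NICD2 and 0.971 ± 0.684 CPM in NICD4), EPS8, a regulator of actin and EGF receptor signalling (18.1 ± 4.05 CPM in NICD2 and 3.14 ± 0.968 CPM in NICD4), RHOBTB3, a gene of a protein with BTB domains (67.6 ± 9.4 CPM in NICD2 and 11.7 ± 4.21 CPM in NICD4), and MAP7D3, a microtubule-associated protein gene (32.7 ± 2.3 CPM in NICD2 and 5.27 ± 0.736 CPM in NICD4), had log2 differences of -2.85, -2.53, -2.59 and -2.63, and GC-adjusted -2.67, -2.12, -2.23 and -2.25.

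ACAT2, an enzyme of acetoacetyl-CoA formation, stood at 102, 149.9 and 102 CPM in NICD2 and 11, 26.4 and 16.8 CPM in NICD4, a log2 difference of -2.77 ± 0.26 (adjusted p = 2.4e-06, GC-adjusted -2.69). The alpha-tubulin genes TUBA1B (30.5, 83.3 and 29 CPM in NICD2 and 4.07, 8.68 and 7.3 CPM in NICD4) and TUBA1C (46.5, 96.6 and 45 CPM in NICD2 and 7.14, 17 and 9.73 CPM in NICD4) were lower in NICD4, with log2 differences of -2.71 and -2.47 and GC-adjusted values of -2.86 and -2.46, and both are near-identical copies between which reads may be split. In ACAT2, TUBA1B and TUBA1C, NICD2 replicate 2 was the highest NICD2 library, and the EV means were 125, 90.5 and 106 CPM. A spread of at least 2-fold within a group was present in 30.6% of the 817 genes called at least 2-fold higher in NICD2 at a mean log2 CPM of 1 or more, against 13.45% of the 974 called so in NICD4 and 5.04% of the 11485 tested at that level. The pseudogene PSMC2P1 (6.6 ± 1.95 CPM in NICD2 and 1.19 ± 1.01 CPM in NICD4, -2.67 and -2.31) was the last of the 12.

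**Figure D3:**
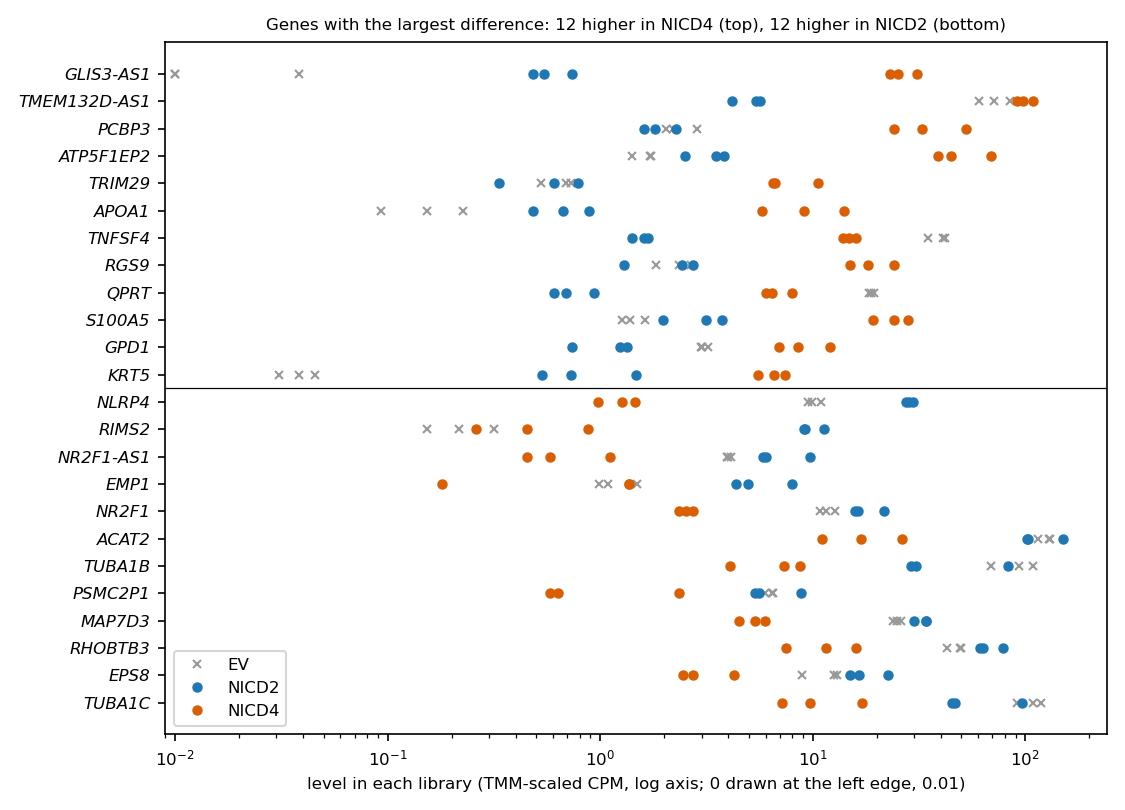
Level (x axis, TMM-scaled CPM on a log axis) in each EV, NICD2 and NICD4 library of the 24 genes with the largest differences among those called in both fits with no overlap between groups and a mean log2 CPM of at least 1. NICD4 lies right of NICD2 in the upper 12 and left of it in the lower 12, while EV lies on either side of both.

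Among the most abundant genes at least 2-fold apart, those higher in NICD4 were 6 ribosomal protein genes. RPLP2, a protein of the ribosomal stalk, stood at 3371, 2053 and 3452 CPM in NICD2 and 12161, 5991 and 8197 CPM in NICD4, a log2 difference of 1.55 ± 0.29 (adjusted p = 0.00038, GC-adjusted 1.36). RPL13, RPS19, RPL18, RPL27A and RPL36 differed by 1.24, 1.18, 1.22, 1.18 and 1.18, and GC-adjusted by 0.71, 0.88, 0.85, 1.16 and 0.57. Higher in NICD2 were NPM1, a nucleolar protein of ribosome assembly (1604 ± 158 CPM in NICD2 and 718 ± 151 CPM in NICD4, -1.18 and -0.72), the ubiquitin gene UBB (-1.11 and -1.10), LDHA, lactate dehydrogenase A (-1.12 and -0.81), S100A10, an annexin partner (-1.01 and -0.96), and the chaperonin subunits CCT5 (-1.04 and -0.74) and CCT2 (-1.25 and -0.85).

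Gene lists were then read by their counts, beside 30% called higher in NICD4 and 33.5% higher in NICD2 over all tested genes. Of the 28 genes listed for cholesterol and lipid synthesis, 26 were tested, with 3 called higher in NICD4 and 16 higher in NICD2, and a median log2 difference of -0.70. GC-adjusted, 0 were higher in NICD4 and 21 higher in NICD2, with a median of -0.64 against 0.001 over all genes. Most of these genes are switched on by the transcription factor SREBP2 when cell sterols are low.

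HMGCS1, the first committed enzyme of the mevalonate pathway, stood at 49.8, 77.3 and 49.4 CPM in NICD2 and 12.2, 11 and 10.9 CPM in NICD4, a log2 difference of -2.34 ± 0.19 (adjusted p = 5.8e-07, GC-adjusted -1.89). Every NICD2 library lay above every NICD4 library, and NICD2 replicate 2 was the highest.

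Further down the pathway, FDPS, farnesyl diphosphate synthase, fell from 103 CPM in NICD2 to 24.2 CPM in NICD4 (-2.17 and -2.28 as scaled and GC-adjusted), IDI1 from 155 to 49.1 CPM (-1.68 and -1.26), FDFT1, squalene synthase, from 493 to 269 CPM (-0.88 and -0.72), and the sterol oxidase MSMO1 from 101 to 37.6 CPM (-1.43 and -0.89). Regulators of the pathway were among the genes lower in NICD4. SREBF2, which encodes SREBP2, stood at 140.3, 134 and 145 CPM in NICD2 and 68.3, 68.1 and 66.6 CPM in NICD4 (-1.05 ± 0.07 (adjusted p = 7.7e-08, GC-adjusted -1.35)), and INSIG1, which holds SREBP in the endoplasmic reticulum and is itself a target, at 65.7, 66.9 and 65.4 CPM in NICD2 and 22.8, 24.8 and 25.9 CPM in NICD4 (-1.43 ± 0.08 (adjusted p = 1.5e-08, GC-adjusted -1.16)). The exceptions as scaled were PMVK (0.75), TM7SF2 (0.71) and FASN, fatty acid synthase (0.40). After GC adjustment PMVK (0.31) and TM7SF2 (0.11) were not called, and FASN (-0.31) was called in the other direction. The FASN difference as scaled was not called without NICD2 replicate 2 (0.31), without NICD4 replicate 1 (0.27) or with the 6 libraries alone (0.40, adjusted p = 0.052). SREBF1 was not called as scaled (0.09 ± 0.08 (adjusted p = 0.32, GC-adjusted -0.54)).

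**Figure D4:**
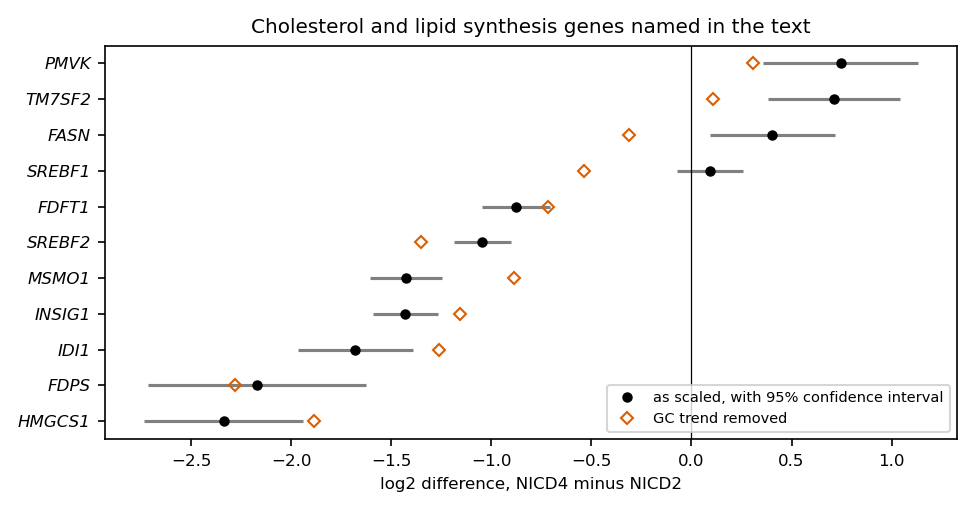
Log2 difference (x axis, NICD4 minus NICD2) of the 11 cholesterol and lipid synthesis genes described above, of 26 tested, as scaled with its 95% confidence interval (black) and GC-adjusted (open diamonds). HMGCS1, FDPS and IDI1 lie furthest to the left, and PMVK, TM7SF2 and FASN lie right of 0 as scaled.

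Genes of the EGF family and of ERK feedback came next. Of 28 listed, 24 were tested, with 4 called higher in NICD4 and 13 higher in NICD2 (median -0.42, and -0.34 GC-adjusted). EGFR, the epidermal growth factor receptor, stood at 14.8, 17.8 and 15 CPM in NICD2 and 3.26, 7.76 and 7.39 CPM in NICD4, a log2 difference of -1.46 ± 0.27 (adjusted p = 0.00041, GC-adjusted -1.59). Its ligands EREG (1.18 ± 0.234 CPM in NICD2 and 0.182 ± 0.086 CPM in NICD4, -2.44 and -1.89) and TGFA (12.2 ± 2.23 CPM in NICD2 and 5.85 ± 0.212 CPM in NICD4, -1.04 and -1.45) were lower in NICD4 as well. The inhibitors SPRY4 (-1.23 and -1.58), SPRED1 (13.8 ± 1.66 CPM in NICD2 and 6.93 ± 1.46 CPM in NICD4, GC-adjusted -0.68) and SPRED2 (-1.28 and -1.31) and the phosphatase gene DUSP7 (-0.68 and -1.12) had the same direction. HBEGF (0.36 and 0.40), the transcription factor ETV5 (0.66 and 0.71) and IER3 (0.58 and 0.20) were higher in NICD4.

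Of the 24 immediate early genes, all tested, 6 were called higher in NICD4 and 9 higher in NICD2, and 2 and 13 GC-adjusted. The zinc finger factor genes KLF2 (-0.99 and -1.77), KLF6 (-0.95 and -1.11) and KLF4 (7.78 ± 1.53 CPM in NICD2 and 3.95 ± 1.22 CPM in NICD4, GC-adjusted -1.17) and the orphan receptor gene NR4A2 (-1.47 and -1.50) were lower in NICD4. FOSB (1.42 and 1.08) and FOSL2 (1.06 and 0.79), which encode AP-1 subunits, were higher in NICD4.

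Targets of YAP and TEAD, which read cell shape and contact, were called higher in NICD4 for 3 and higher in NICD2 for 10 of the 20 listed and tested, with medians of -0.41 and -0.47. The matricellular genes CCN1 (203 ± 25.9 CPM in NICD2 and 104 ± 8.45 CPM in NICD4, -0.95 and -1.26) and CCN2 (7.53 ± 0.546 CPM in NICD2 and 3.38 ± 0.274 CPM in NICD4, -1.14 and -1.13) were lower in NICD4, as was the nucleotidase gene NT5E (-1.22 and -0.87). AXL, a receptor tyrosine kinase gene, stood at 20.4, 20.4 and 22.4 CPM in NICD2 and 74.9, 53.4 and 65.1 CPM in NICD4 and was higher in NICD4 (1.60 ± 0.11 (adjusted p = 1.8e-07, GC-adjusted 1.17)), and so was ANKRD1 (1.36 and 1.74).

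Single signalling genes with large differences stood beside these lists. RNF43, which removes WNT receptors from the cell surface and lay below the level limit of the 24 genes above, was measured at 5.08, 4.48 and 5.23 CPM in NICD2 and 0.181, 0.391 and 0.389 CPM in NICD4, with a log2 difference of -3.79 ± 0.42 (adjusted p = 9.7e-06) and -4.02 GC-adjusted. The WNT list it belongs to was divided, with 8 of 27 tested genes called higher in NICD4, among them WNT6 (2.02 and 1.02), WNT7B (1.55 and 0.84) and the receptor FZD2 (1.39 and 0.69), and 9 higher in NICD2. BMP4, a bone morphogenetic protein, stood at 242, 324 and 241 CPM in NICD2 and 50.5, 84.8 and 66.8 CPM in NICD4, a difference of -2.01 ± 0.18 (adjusted p = 1.6e-06, GC-adjusted -2.14). TGFBR2, a TGF-beta receptor, was lower in NICD4 (2.63 ± 0.744 CPM in NICD2 and 0.538 ± 0.336 CPM in NICD4, -2.35 and -2.11). Of 25 tested TGF-beta and BMP genes 3 were called higher in NICD4 and 7 higher in NICD2 (3 and 8 GC-adjusted). NFKB1, which encodes the p50 subunit of NF-kB, was lower in NICD4 (30.9 ± 5.97 CPM in NICD2 and 10.2 ± 2.97 CPM in NICD4, -1.62 and -1.46). Of 18 tested NF-kB subunits and targets 7 were called higher in NICD4 and 4 higher in NICD2, and GC-adjusted 1 and 7.

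Genes of ribosome assembly and of the ribosome itself were counted apart. Of 30 genes listed for MYC and ribosome biogenesis 28 were tested, with 6 called higher in NICD4 and 14 higher in NICD2. Besides MYC and NPM1, nucleolin NCL (-0.58 and -0.34), WDR12 (-1.21 and -0.71) and ODC1, the first enzyme of polyamine synthesis (-0.73 and -0.65), were lower in NICD4, whereas PES1 (0.70 and 0.37) and RRP12 (0.70 and 0.43) were higher. Of 57 cytosolic ribosomal protein genes, 33 were called higher in NICD4 and 3 higher in NICD2 as scaled, and 36 and 3 GC-adjusted, with medians of 0.40 and 0.51. RPL30 (-0.88 and -0.59) and RPL10 (-0.48 and -0.64) were called higher in NICD2 in both fits. With total-read scaling the ribosomal counts were 28 and 10. Many ribosomal protein genes have processed pseudogenes, so their counts depend on how shared reads were assigned.

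Chaperone genes of the heat shock response were called higher in NICD4 for 3 and higher in NICD2 for 11 of 19. HSPA8, the constitutive HSP70, stood at 3323 ± 514 CPM in NICD2 and 1798 ± 323 CPM in NICD4 (-0.89 and -0.64), and TCP1 of the CCT chaperonin was lower in NICD4 (-1.29 and -0.96). HSPB1, the small heat shock protein, was higher in NICD4 (1589 ± 303 CPM in NICD2 and 3217 ± 636 CPM in NICD4, 1.02 and 0.34). PDIA6, a disulfide isomerase of the endoplasmic reticulum, was lower in NICD4 (54 ± 24.5 CPM in NICD2 and 11.5 ± 5.66 CPM in NICD4, -2.26 and -1.97), while the unfolded protein response list was divided (5 higher in NICD4 and 9 higher in NICD2 of 20).

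Cell cycle genes did not share a direction. Of 28 mitotic genes 8 were called higher in NICD4 and 15 higher in NICD2 as scaled, and 10 and 11 GC-adjusted. KIF20A, a mitotic kinesin (29.7 ± 8.76 CPM in NICD2 and 8.99 ± 3.76 CPM in NICD4, -1.77 and -1.64), and BUB1, a spindle checkpoint kinase (-1.10 and -0.68), were lower in NICD4. BIRC5, survivin (330.0 ± 42.2 CPM in NICD2 and 643 ± 157 CPM in NICD4, 0.94 and 0.91), and CDC20, an activator of the anaphase-promoting complex (0.71 and 0.41), were higher. MKI67, the proliferation marker Ki-67, stood at 419.5, 361 and 436 CPM in NICD2 and 630.1, 500.1 and 556 CPM in NICD4 and was higher in NICD4 by 0.47 ± 0.10 (adjusted p = 0.00099, GC-adjusted 0.66). Of 32 DNA replication genes 6 were called higher in NICD4 and 17 higher in NICD2, and 4 and 12 GC-adjusted.

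Glycolysis genes were divided within the pathway. SLC2A1, the glucose transporter GLUT1, stood at 383, 458 and 392 CPM in NICD2 and 133, 183 and 156 CPM in NICD4 and was lower in NICD4 (-1.40 ± 0.12 (adjusted p = 8.3e-07, GC-adjusted -1.67)), as were LDHA, given above, and PGK1 (-0.95 and -0.57). PFKL, the liver form of phosphofructokinase, was higher in NICD4 (80.3 ± 0.659 CPM in NICD2 and 295 ± 72.1 CPM in NICD4, 1.85 and 1.20), whereas PFKP, the platelet form, was lower (202 ± 28.3 CPM in NICD2 and 114 ± 8.18 CPM in NICD4, -0.82 and -1.17). Hexokinase 1, HK1, was higher (1.06 and 1.09) and hexokinase 2, HK2, lower (-0.65 and -0.63). Of the 34 hypoxia and glycolysis genes 10 were called higher in NICD4 and 15 higher in NICD2.

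Antigen presentation genes were called higher in NICD4 for 12 of 21 tested and higher in NICD2 for 1, with a median of 0.72, and GC-adjusted for 10 and 1, with a median of 0.27. HLA-E, a nonclassical class I gene, stood at 54.1, 50.1 and 54.8 CPM in NICD2 and 155, 127 and 138 CPM in NICD4, a log2 difference of 1.40 ± 0.09 (adjusted p = 7.1e-08, GC-adjusted 0.71). HLA-B (0.94 and 0.51) and the immunoproteasome subunit PSMB10 (1.20 and 0.63) were higher in NICD4 too. B2M, the light chain that all class I molecules need, was the gene called in the other direction, at 85.9, 101 and 81.4 CPM in NICD2 and 29.4, 72.2 and 48.8 CPM in NICD4 (-0.92 ± 0.25 (adjusted p = 0.0052, GC-adjusted -0.43)). The GC-adjusted B2M difference was called with an adjusted p of 0.049 and not called with a replicate block added (limma, adjusted p = 0.053). HLA genes are highly alike and variable between people, so reads may be split among them.

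Interferon-stimulated genes were called higher in NICD4 for 12 and higher in NICD2 for 6 of 22 tested, and GC-adjusted for 9 and 4. ISG15, a ubiquitin-like modifier, stood at 236, 166 and 233 CPM in NICD2 and 1027, 608 and 736 CPM in NICD4 (1.88 ± 0.22 (adjusted p = 1.5e-05), GC-adjusted 1.22), and IFI6 (1.54 and 1.29) and IFITM2 (1.44 and 1.15) were also higher. Without NICD4 replicate 1 the number called higher in NICD2 was 2.

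Matrix genes were called in both directions. COL6A1 and COL6A2, which encode chains of collagen VI and lie next to each other on chromosome 21, stood at 36, 30.9 and 38.2 CPM in NICD2 and 186, 155 and 171 CPM in NICD4 and at 70.8, 67.9 and 69.2 CPM in NICD2 and 339.8, 215 and 266 CPM in NICD4, log2 differences of 2.29 ± 0.11 (adjusted p = 8.4e-09, GC-adjusted 1.65) and 1.95 ± 0.13 (adjusted p = 1.2e-07, GC-adjusted 1.25). COL12A1 (-1.35 and -1.09) and COL4A6 (-1.61 and -1.77) were lower in NICD4. The laminin chain LAMA3 (-2.00 and -1.73) and the integrin gene ITGA6 (-1.25 and -0.79) of the hemidesmosome were lower as well, while its partner ITGB4 was higher (0.99 and 0.37). THBS1, thrombospondin 1, was lower (40.7 ± 14.7 CPM in NICD2 and 12.8 ± 1.77 CPM in NICD4, -1.62 and -1.58). Of 21 collagens tested 9 were called higher in NICD4 and 5 higher in NICD2, and GC-adjusted 5 and 4. Of 18 integrins and laminins tested 5 were called higher in NICD4 and 9 higher in NICD2 (4 and 9 GC-adjusted).

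Junction genes were called in both directions. Of 26 tight and adherens junction genes tested 8 were called higher in NICD4 and 10 higher in NICD2 (6 and 11 GC-adjusted), and of 25 keratin and desmosome genes 6 and 9 (3 and 11). NECTIN1 (35.8 ± 2.54 CPM in NICD2 and 100.4 ± 9.82 CPM in NICD4, 1.48 and 1.11) and NECTIN4 (1.27 and 1.04), adhesion molecules of adherens junctions, and the claudin gene CLDN6 (1.53 and 1.19) were higher in NICD4. Occludin OCLN (-0.94 and -0.48) and the desmosomal cadherin genes DSC3 (-1.97 and -1.47) and DSC2 (-1.13 and -0.59) were lower. GRHL2, a transcription factor that maintains epithelial junctions, was lower in NICD4 (9.42, 10.5 and 8.49 CPM in NICD2 and 3.07, 3.91 and 3.89 CPM in NICD4, -1.37 ± 0.25 (adjusted p = 0.00038, GC-adjusted -1.27)). The abundant keratin gene KRT8 was called in neither fit (0.35 and -0.01).

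Guidance genes followed. Of 24 tested semaphorin, plexin and neuropilin genes, 13 were called higher in NICD4 and 3 higher in NICD2, and GC-adjusted 9 and 5, with a median of -0.02. SEMA3F, a secreted semaphorin, was higher in NICD4 (11.5 ± 0.712 CPM in NICD2 and 34.1 ± 10.4 CPM in NICD4, 1.53 and 0.99), and SEMA3E was lower (1.62 ± 0.348 CPM in NICD2 and 0.259 ± 0.233 CPM in NICD4, -2.91 and -2.49). The receptor genes PLXNB1 (1.13 and 0.66) and NRP1 (0.74 and 1.02) were higher. Of 15 tested ephrin and Eph receptor genes 6 were called higher in NICD4 and 3 higher in NICD2, with a median of 0.25. GC-adjusted these counts were 5 and 5, with a median of -0.08. The receptor genes EPHB6 (3.8 ± 0.252 CPM in NICD2 and 19.5 ± 4.43 CPM in NICD4, 2.32 and 1.81), EPHB2 (0.90 and 0.54) and EPHB3 (1.19 and 0.61) were higher in NICD4, and the ephrin EFNB2, given above, was lower.

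Markers of other cell types were counted too. Of 9 tested mesenchymal markers 2 were called higher in NICD4 and 3 higher in NICD2 (1 and 3 GC-adjusted). The summed level of the 16 mesenchymal markers in the table was 109.7 to 142.4 CPM in NICD2 and 493.6 to 746.8 CPM in NICD4, and most of it was S100A4, a calcium-binding protein gene, at 111, 78.9 and 120.2 CPM in NICD2 and 733, 474 and 588 CPM in NICD4 (2.53 ± 0.21 (adjusted p = 9.3e-07, GC-adjusted 2.49)). SNAI1, a transcription factor of the same list, was lower in NICD4, as given above, and VIM had a mean of 1.85 CPM in NICD2 and 1.06 CPM in NICD4. Of 6 tested endothelial markers 5 were called higher in NICD4 and 0 higher in NICD2 (4 and 0 GC-adjusted). The summed endothelial markers were 140.7 to 208 CPM in NICD2 and 382 to 612.5 CPM in NICD4, of which EGFL7 made up most, at 178 ± 37.3 CPM in NICD2 and 474 ± 115 CPM in NICD4 (1.41 and 0.58), and CDH5 had no read in these libraries. Of 8 tested immune cell markers 5 were called higher in NICD4 and 0 higher in NICD2 (4 and 1 GC-adjusted). Immune cell markers summed to 8.48 to 9.63 CPM in NICD2 and 11.68 to 16.01 CPM in NICD4. The part of other cells in any result was not tested. Of 17 contractile markers tested 8 were called higher in NICD4 and 5 higher in NICD2 (3 and 6 GC-adjusted). DES, desmin (3.37 ± 0.825 CPM in NICD2 and 11.2 ± 3.74 CPM in NICD4, 1.69 and 1.33), CSPG4 (1.79 and 1.15) and TPM2 (0.92 and 0.51) of the contractile markers were higher in NICD4, and MYL9 (40.2 ± 10.9 CPM in NICD2 and 12 ± 6.39 CPM in NICD4, -1.84 and -2.35) and TPM1 (-1.58 and -1.51) were lower.

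**Figure D5:**
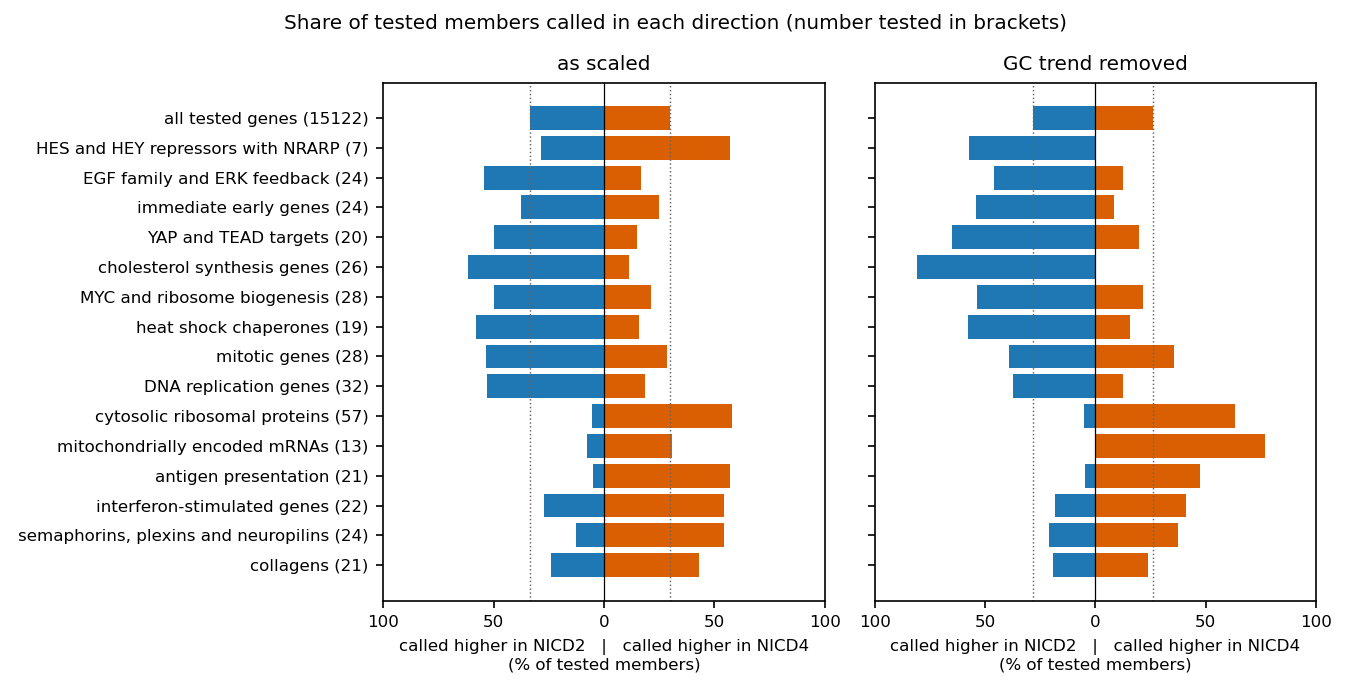
Share of the tested members of 15 gene lists, and of all tested genes, called higher in NICD4 (orange, right) or in NICD2 (blue, left), in percent (x axis), as scaled and with the GC trend removed. Dotted lines mark the shares over all tested genes. The cholesterol genes extend furthest to the left in both panels, and the HES and HEY genes change sides between the panels, as they do in part with total-read scaling.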

How the data were processed

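RNA-seq of polyA RNA was compared between 3 NICD4 and 3 NICD2 libraries, 6 of 15. The authors deposited, per the file headers, log2 values of the raw read count per gene, and the submitters' processing notes name TopHat2 2.0.6, HTSeq and GRCh37. Settings, annotation release and strand are not given in the sources used here. Reads were recovered as 2 to the power of the log2 value minus 1, which gave whole numbers within 0.001 for 100% of values.

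Genes with 10 reads at the median depth (0.548 CPM) in 3 libraries and 15 reads in all were tested, 15122 of 31352, of which 14737 (97.5%) had a GC content from GENCODE release 29 transcripts. Reads were scaled by TMM factors, 1 read (0.0545 CPM) was added, and log2 values were fitted over all 15 libraries with limma 3.58.1 (R 4.3.3, trended robust prior with statmod 1.5.0), with two-sided p-values adjusted over all tested genes (Benjamini-Hochberg). The added read understates differences of low genes. The GC-adjusted fit removes, per library, a loess curve (span 0.3) of each gene's deviation from its mean on GC content. Alternatives were the scaling, the added reads, the filter, voom weights, the 6 libraries alone, a replicate block and leaving out each library.

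Named genes were the 12 largest differences in each direction called in both fits, with no overlap between groups and a mean log2 CPM of at least 1, the 6 with the highest level at least 2-fold apart, the NOTCH receptors, and members of 48 lists. The members and lists were chosen with earlier results of these data known. No list was tested as a set. Of the file's genes, 6041 had no symbol and were not named. Coordinates are GRCh37 from the file, promoter sequences RefSeq GRCh38.p14. Some genes of these lists are not reported here.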

Additional observations from a re-analysis of the deposited data

How the results depend on the processing

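The counts of 4541 genes higher in NICD4 and 5059 higher in NICD2 stayed within 1.5 times under each alternative run, from 3155 and 6760 with total-read scaling to 4766 and 4764 with median-of-ratios scaling. Leaving out 1 library gave 3875 to 4624 genes higher in NICD4 and 4262 to 5256 higher in NICD2, the lowest of both without NICD2 replicate 2. Among named genes called as scaled or GC-adjusted, removing the GC trend turned the sign of CCND1 (-0.34), FASN (-0.31), HES4 (-0.33), HES6 (-0.50), HEYL (-0.07), JAG2 (-0.28), NOTCH1 (-0.49) and SREBF1 (-0.54), with the same values in the replicate block with the GC trend removed. NOTCH2, NOTCH3 and KRT8, called in neither fit, also changed sign, as their values above show. This follows from the alternative's construction, since it subtracts a curve on GC content. Total-read scaling ended the calls of CCND1 (0.05), HBEGF (0.10), HES2 (0.25), HES6 (0.14), HEYL (0.09), JAG2 (0.12), FASN (0.14) and NRP1 (0.49), and called NOTCH2 lower in NICD4 (-0.32). Leaving out 1 library ended the call of VIM as scaled in 4 of 6 cases (-0.62 to -0.86), and that of FASN and HEYL as given above, and it called RUNX1 (0.24) and KRT8 (0.49) without NICD4 replicate 2, NOTCH1 (0.24) without NICD2 replicate 1 and NOTCH3 (0.31) without NICD2 replicate 3. The 6 libraries alone gave 3952 and 4298 genes, ended the calls of FASN, HEYL and VIM (-0.90) and called HEY1. Under 5 added reads, no filter and voom weights, the 179 named genes kept their direction and side of the threshold.

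The replicate numbers were not taken as pairing the libraries, because the correlations of deviations between same-numbered libraries were 0.184, 0.363 and -0.028. The replicate block gave 4553 genes higher in NICD4 and 5050 higher in NICD2, and with the GC trend removed 3856 and 4116. NICD2 replicates 1 and 2 correlated best with the NICD4 library of their own number, and replicate 3 did not, at 0.243 with NICD4 replicate 1.

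The cell line label, the conflicting label of NICD4 replicate 1, the missing dose and duration and the unknown source of the replicates limit all values. Groups of 3 were too small for a test of single outlying libraries. Genes near 0.0545 CPM have understated differences.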

Other observations

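Reads on transfer RNA genes of the mitochondrial genome were mostly higher in NICD4. Of 17 such genes tested, 16 were called higher in NICD4 and none higher in NICD2, with a median log2 difference of 1.65 and, GC-adjusted, 2.07. In polyA RNA without a stated strand setting, these reads may come from longer or adjoining mitochondrial transcripts, which was not tested. They are therefore not a measure of mature transfer RNA. The mitochondrially encoded mRNAs were called higher in NICD4 for 4 and higher in NICD2 for 1 of 13 as scaled, and 10 and 0 GC-adjusted, but 2 and 2 with total-read scaling. MT-ND6, the one mRNA encoded on the light strand, stood at 1540.2, 1298 and 1675 CPM in NICD2 and 2848, 2198 and 2713 CPM in NICD4, a log2 difference of 0.78 ± 0.16 (adjusted p = 0.00099, GC-adjusted 1.19), without a stated strand setting that would separate it from MT-ND5 antisense reads. Of 41 nuclear genes of the respiratory chain, 18 were called higher in NICD4 and 11 higher in NICD2, a split that was 15 and 17 with total-read scaling.

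Host genes of small nucleolar RNAs, whose spliced RNA has no protein product, were called higher in NICD4 for 10 and higher in NICD2 for 4 of 18 tested, and 6 and 7 with total-read scaling. SNHG19 (75.9 ± 18 CPM in NICD2 and 258 ± 64 CPM in NICD4, 1.77 and 1.52 as scaled and GC-adjusted) and SNHG9 (40.4 ± 10.8 CPM in NICD2 and 178 ± 62.3 CPM in NICD4, 2.11 and 1.43) were higher in NICD4, and SNHG29 (281 ± 42.5 CPM in NICD2 and 93.4 ± 47.2 CPM in NICD4, -1.71 and -1.58) and SNHG32 (-1.06 and -0.98) were lower.

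Some differences lay together along chromosomes. In 1426 overlapping windows of 25 consecutive tested genes, the median GC-adjusted difference had a median of -0.0075, and 15 windows were at 0.6 or above and 2 at -0.5 or below. The 15 are not separate regions, since many of them share genes. They lie on chromosomes 11, 17, 19 and 21 and on the mitochondrial genome. These windows were picked after their values were seen and carry no test. On chromosome 17, chr17:38599702-39661849 (GRCh37), which holds type I keratin and keratin-associated genes, had 18 of 25 genes called higher in NICD4 and none higher in NICD2, a median of 1.35 as scaled and 1.06 GC-adjusted. On chromosome 11, chr11:114270752-118302211, which holds APOA1 and TAGLN, had 18 higher in NICD4 and none higher in NICD2, with medians of 0.78 and 0.86. On chromosome 21, chr21:45926690-47671615, which holds PCBP3, COL6A1 and COL6A2, had 18 higher in NICD4 and 1 higher in NICD2, with medians of 0.86 and 0.74.

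Lower in NICD4 were chr7:25174316-28220362, the HOXA cluster and its neighbours, with 13 of 25 genes called higher in NICD2 and 4 higher in NICD4 (medians -0.60 and -0.57), and chr5:38845960-52252327, with 16 called higher in NICD2 and none higher in NICD4 (medians -0.79 and -0.58). The second window includes HMGCS1, which is also among the cholesterol genes.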
